A study of Mus musculus with 7 samples.

Results

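Endothelial cells line the blood vessels of the neocortex, and mural cells, which comprise pericytes and vascular smooth muscle, wrap them from outside. In brain the endothelium forms the blood-brain barrier through tight junctions, efflux pumps and nutrient carriers, and pericytes are recruited to it by platelet-derived growth factor and help to maintain it. The genes described here are 33 markers of these cells, 24 endothelial and 9 mural, listed by name as markers of these cell types, with earlier results of these data already known. Of the 33, 32 had a probe set annotated to that gene alone. The exception was Ly6c1, which is named only. Slco1a4, an organic anion transporter of brain endothelium, lay below the filter on dim probe sets, with log2 signals of 5.17 to 5.42 in CKO and 5.11 to 5.18 in WT. The other 31, 22 endothelial and 9 mural, were tested among 16144 genes.

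RNA of whole neocortex from C57BL/6 mice was hybridised to 7 arrays, 1 for each sample. The 4 CKO samples carry a genotype written as COUP-TFI with Nex-Cre, and the 3 WT samples are labelled wild type. COUP-TFI is the nuclear receptor encoded by Nr2f1, and Nex-Cre is a driver line known for recombination mainly in postmitotic glutamatergic neurons. The sources used here do not give age, sex or whether WT samples carried Cre or a floxed allele. Nor is a separate animal stated for each array, so errors and adjusted p-values reflect only how far these samples spread, which may be technical. Arrays are named by group and label number, CKO 1, 4, 34 and 43 and WT 6, 27 and 38. Values are log2 signals after robust multi-array average (RMA) processing, differences are CKO minus WT, and adjusted p-values come from limma with Benjamini-Hochberg adjustment over all 16144 genes. In whole tissue, fewer cells of a type and less RNA per cell cannot be told apart.

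The array identifiers in the labels share 3 stems: CKO 1 and CKO 4 have the first, CKO 34, CKO 43, WT 27 and WT 38 the second, and WT 6 the third, and what a stem stands for is not stated. Nr2f1 itself had 10.63, 10.79, 10.60 and 10.70 on the CKO arrays, in the order above, and 11.08, 11.16 and 10.88 on the WT arrays. Every CKO value lay below every WT value, with a difference of -0.36 (SE 0.074, adjusted p 0.435 from limma); whether its probe set lies in the deleted part is not known here. Over all genes tested the median difference was 0.014, and 58.9% of genes had a difference above 0. CKO 1 was the highest of the 7 arrays for 17.7% of all genes and WT 38 the lowest for 30.8%.

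No endothelial or mural cell gene passed an adjusted p of 0.05, as 0.0248% of all genes did. The smallest adjusted p was 0.726 among endothelial genes and 0.722 among mural ones. Differences were small and mostly above 0. In the endothelial list 19 of 22 genes were above 0, the median was 0.044 and the range -0.10 to 0.14. In the mural list 8 of 9 were above 0, the median was 0.069 and the range -0.03 to 0.18. In 25 of the 31 genes the difference was under 0.1 in size. The 95% intervals of all 31 lay between -0.34 and 0.45. Slc2a1 and Notch3 were the 2 genes of the 31 with an interval that excluded 0 without adjustment, both higher in CKO, as it did for 4.17% of all genes. An unadjusted p under 0.05 was reached by 6.79% of all genes in either direction and by 2.61% lower in CKO, where no member was. The groups did not overlap for 3 genes, Slc2a1, Eng and Cdh5, each higher in CKO, as for 5.39% of all genes. No member had all CKO arrays below all WT arrays, as 2.99% of all genes did, and 8.38% of all genes did not overlap in either direction.

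**Figure D1:**
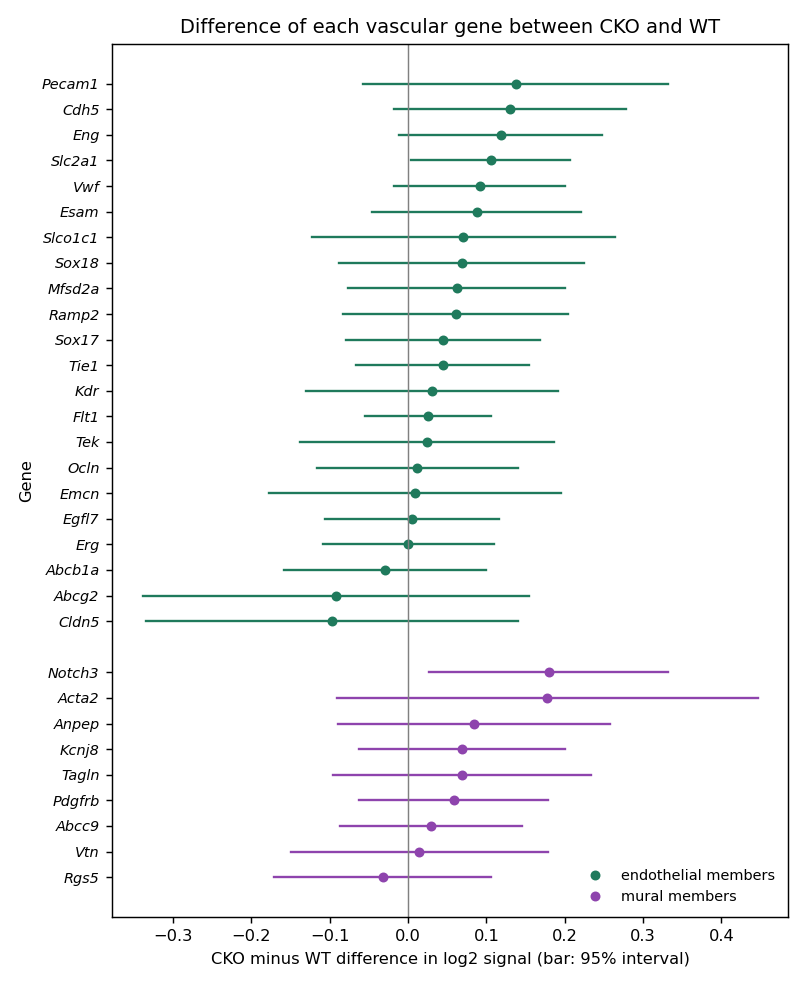
CKO minus WT difference in log2 signal (x axis) of the 22 endothelial (green, above) and 9 mural cell genes (purple, below) tested, sorted within each list. Points are limma differences and bars their 95% intervals; 2 bars, those of Slc2a1 and Notch3, do not cross 0.

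Promoters are shown for Eng and Slc2a1, the endothelial genes with the smallest p that had an entry, and for Acta2, the 1 mural gene whose promoter holds a match to the relaxed CArG box described next. They are from RefSeq (GRCm38.p6), which held 32 promoters of 24 of the 33 members, each 250 bases before to 50 bases after an annotated start. The first search was for GGAAG, the core bound by ETS factors such as ERG, on both strands. The second was for the CArG box, the site of serum response factor in smooth muscle genes, both as its consensus and with a single C or G allowed in its A and T centre, a form that is the same on both strands. The third was for TATAAA on both strands. The windows are chr2:32646345-32646644 on the plus strand for Eng, chr4:119108495-119108794 on the plus strand for Slc2a1 and chr19:34255324-34255623 on the minus strand for Acta2. Capitals mark GGAAG or its reverse complement in Eng, beginning at -52 and -5. Slc2a1 holds no GGAAG on either strand and no relaxed CArG box. Capitals there mark TATAAA instead, beginning at 28, after the annotated start. In Acta2 they mark the relaxed CArG box, beginning at -84 and -34. Positions are in bases from the annotated start, negative before it. Eng also holds 1 relaxed CArG box, left in lower case, and GGAAG was not marked in Acta2.
Eng: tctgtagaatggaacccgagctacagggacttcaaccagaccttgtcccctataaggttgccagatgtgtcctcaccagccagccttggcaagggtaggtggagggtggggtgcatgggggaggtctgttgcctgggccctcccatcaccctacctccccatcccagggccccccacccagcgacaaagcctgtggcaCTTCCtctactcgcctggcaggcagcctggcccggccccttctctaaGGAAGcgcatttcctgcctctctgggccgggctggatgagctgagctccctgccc
Slc2a1: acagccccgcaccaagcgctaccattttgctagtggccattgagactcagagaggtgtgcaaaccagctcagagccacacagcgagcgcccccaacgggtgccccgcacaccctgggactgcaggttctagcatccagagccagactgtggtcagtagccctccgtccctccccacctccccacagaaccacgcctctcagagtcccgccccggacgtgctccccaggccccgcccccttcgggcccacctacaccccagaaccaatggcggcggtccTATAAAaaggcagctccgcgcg
Acta2: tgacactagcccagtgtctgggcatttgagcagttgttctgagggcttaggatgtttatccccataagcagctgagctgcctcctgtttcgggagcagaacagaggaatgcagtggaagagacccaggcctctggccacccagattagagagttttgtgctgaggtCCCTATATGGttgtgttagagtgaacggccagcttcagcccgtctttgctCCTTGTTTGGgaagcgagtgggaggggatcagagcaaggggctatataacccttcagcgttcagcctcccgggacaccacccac

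GGAAG was in 18 of 25 endothelial promoters (72.0%) and in 3 of 7 mural ones (42.9%), against 71.4% of all 32851 promoters of this length. The CArG consensus was in 0 of the 25 endothelial and 0 of the 7 mural promoters, against 1.63% of all. Its relaxed form was in 6 endothelial promoters (24.0%) and in that of Acta2 (14.3% of the mural ones), against 9.98% of all, and in Acta2 a GGAAG overlapped it. TATAAA was in 7 endothelial promoters (28.0%) and 1 mural promoter (14.3%), against 13.6% of all. These matches describe letters and not binding.

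Among carriers and pumps of the barrier, Slc2a1 encodes the glucose transporter GLUT1, which is also made by other brain cells. It had 12.06, 12.08, 12.06 and 12.14 on CKO 1, CKO 4, CKO 34 and CKO 43, and 11.91, 12.04 and 11.98 on WT 6, WT 27 and WT 38. Every CKO array lay above every WT array, and the gap between CKO 1 and WT 27 was narrow beside the spread within each group. The difference was 0.11 (SE 0.044), a signal 1.08 times that of WT, with an adjusted p of 0.726 from limma. CKO 43 was the highest array for Slc2a1 and CKO 1 the lowest of the CKO arrays, unlike most endothelial genes.

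Mfsd2a, which carries lipids with omega-3 chains across the endothelium, averaged 11.40 ± 0.020 in CKO (SD, n = 4) and 11.34 ± 0.134 in WT (SD, n = 3). The WT spread came mainly from WT 38, at 11.20. Slco1c1, a thyroxine transporter, averaged 9.25 ± 0.154 in CKO and 9.18 ± 0.087 in WT. The efflux pump genes Abcb1a and Abcg2 had negative differences over all arrays, but positive ones, 0.031 and 0.035, without WT 27. Outside the members, the transporter genes Abcc4 (0.056) and Abcb1b (0.13, below the filter) had positive differences. Abcb1a, which encodes P-glycoprotein, averaged 8.12 ± 0.043 in CKO and 8.15 ± 0.111 in WT, a difference of -0.03 (SE 0.056). Abcg2, which encodes the breast cancer resistance protein, had 8.55 to 8.66 in CKO, and in WT 8.73 on WT 6, 8.96 on WT 27 and 8.43 on WT 38. Its WT values lay on both sides of all 4 CKO values, and its difference of -0.09 (SE 0.108) had the widest interval of the endothelial genes, from -0.339 to 0.155.

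Junction and adhesion genes had differences of both signs. Cldn5, the main claudin of brain endothelial tight junctions, had 10.57, 10.45, 10.43 and 10.37 on CKO 1, CKO 4, CKO 34 and CKO 43, and 10.82, 10.35 and 10.48 on WT 6, WT 27 and WT 38. WT 6 stood above the other 6 arrays. The difference was -0.10 (SE 0.104, adjusted p 0.828 from limma) over all arrays and 0.04 without WT 6. Ocln, which encodes occludin, averaged 7.23 ± 0.078 in CKO and 7.22 ± 0.075 in WT, a difference of 0.012.

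Cdh5 encodes VE-cadherin, the cadherin of endothelial adherens junctions. It had 10.17 on CKO 1, 9.97 on CKO 4, 9.93 on CKO 34 and 9.93 on CKO 43, and 9.88 on WT 6, 9.91 on WT 27 and 9.81 on WT 38. The groups did not overlap, but CKO 1 lay 0.23 above the mean of the other CKO arrays, and CKO 43 and WT 27 were close together. The difference was 0.13 (SE 0.065, adjusted p 0.727 from limma) over all arrays and 0.07 without CKO 1. Pecam1, the platelet endothelial adhesion molecule, averaged 8.80 ± 0.091 in CKO and 8.66 ± 0.177 in WT, where WT 38 was lowest at 8.46. Its difference of 0.14 was the largest among endothelial genes over all arrays and was 0.036 without WT 38, when it was no longer the largest. Esam, another endothelial adhesion molecule, averaged 8.93 ± 0.054 in CKO and 8.85 ± 0.111 in WT, and its difference of 0.09 was 0.024 without WT 38. Emcn, the sialomucin endomucin, averaged 9.27 ± 0.162 in CKO and 9.26 ± 0.009 in WT, with CKO 1 at 9.45 and CKO 4 at 9.07.

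Genes of growth factor receptors differed little. Flt1 and Kdr encode vascular endothelial growth factor (VEGF) receptors 1 and 2. Flt1 had the smallest SE of the 31 genes, 0.035, and stood at 9.05 ± 0.022 in CKO and 9.03 ± 0.023 in WT, with a 95% interval of -0.06 to 0.11 for the difference. Kdr averaged 8.98 ± 0.125 in CKO and 8.95 ± 0.061 in WT, and CKO 1 alone was at 9.15. Of the angiopoietin receptor genes, Tek averaged 8.53 ± 0.025 in CKO and 8.50 ± 0.165 in WT, and Tie1 9.36 ± 0.062 in CKO and 9.32 ± 0.056 in WT. Ramp2, which encodes the partner of the adrenomedullin receptor, averaged 8.92 ± 0.104 in CKO and 8.86 ± 0.063 in WT.

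Eng encodes endoglin, a co-receptor for transforming growth factor beta (TGF-beta) ligands. It had 9.96, 9.81, 9.77 and 9.78 on CKO 1, CKO 4, CKO 34 and CKO 43, and 9.75, 9.75 and 9.64 on WT 6, WT 27 and WT 38. The groups did not overlap, with CKO 1 alone at the top and WT 38 alone at the bottom, and the other 5 arrays between 9.75 and 9.81. The difference was 0.12 (SE 0.057, adjusted p 0.726 from limma) over all arrays, 0.08 without either CKO 1 or WT 38 and 0.04 without both.

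Secreted proteins and transcription factors of the endothelium were also close between the groups. Vwf encodes von Willebrand factor, which binds platelets. It had 8.66, 8.54, 8.55 and 8.49 on CKO 1, CKO 4, CKO 34 and CKO 43, and 8.44, 8.50 and 8.46 on WT 6, WT 27 and WT 38. Of the CKO arrays CKO 43 lay below WT 27, and the difference was 0.09 (SE 0.048, adjusted p 0.730 from limma), or 0.058 without CKO 1. Egfl7, a secreted protein of the vessel wall, averaged 9.48 ± 0.061 in both groups. The SoxF genes Sox17 and Sox18, which act in arterial and endothelial specification, had differences of 0.04 (SE 0.054) and 0.07 (SE 0.068). That of Sox18 was 0.0048 without WT 38. Erg, an ETS factor of endothelial identity, had the difference nearest 0 of the 31 genes, 0.00043 (SE 0.047), with means of 7.89 in both groups.

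**Figure D2:**
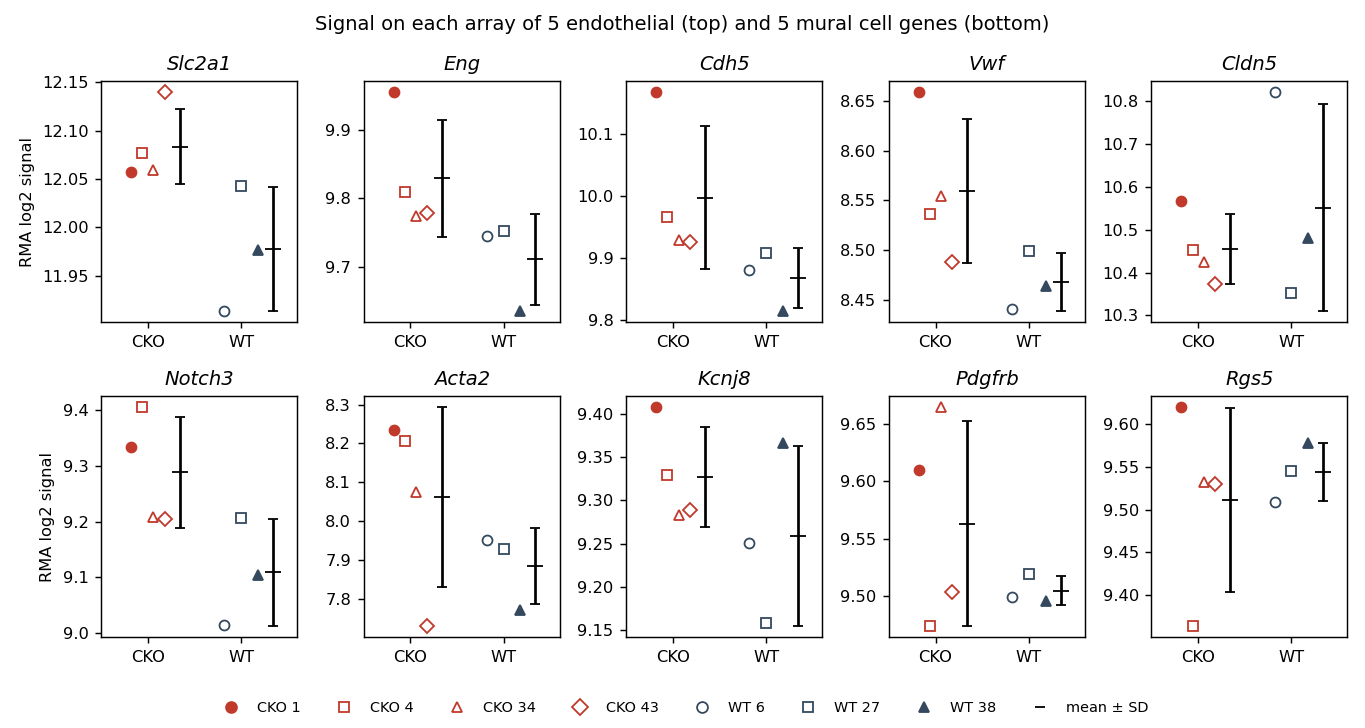
RMA log2 signal (y axes, each with its own range) on each CKO and WT array of 5 endothelial (top) and 5 mural cell genes (bottom), with the mean and SD of each group beside the points. Filled symbols are CKO 1 and WT 38; CKO 1 is the highest array for Eng, Cdh5, Vwf, Acta2, Kcnj8 and Rgs5, while WT 6 is the highest for Cldn5.

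Mural genes were described apart. Notch3, a Notch receptor of pericytes and vascular smooth muscle, had 9.33, 9.41, 9.21 and 9.21 on CKO 1, CKO 4, CKO 34 and CKO 43, and 9.01, 9.21 and 9.10 on WT 6, WT 27 and WT 38. CKO 1 and CKO 4 were the high arrays, and the other CKO arrays were level with WT 27. Its difference of 0.18 (SE 0.067), or 1.13 times the WT signal, was the largest among all 31 members, with an adjusted p of 0.722 from limma. Within the second stem of array identifiers, which leaves out CKO 1, CKO 4 and WT 6, the difference was 0.05.

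The smooth muscle genes Acta2 and Tagln encode alpha smooth muscle actin and transgelin. Acta2 had 8.23, 8.21, 8.08 and 7.73 on CKO 1, CKO 4, CKO 34 and CKO 43, and 7.95, 7.93 and 7.77 on WT 6, WT 27 and WT 38. CKO 43 lay below all 3 WT arrays while the other CKO arrays lay above them, and the 95% interval of the difference, 0.18, ran from -0.09 to 0.45. The difference was 0.29 without CKO 43 and 0.12 without CKO 1. Tagln averaged 7.10 ± 0.126 in CKO and 7.03 ± 0.072 in WT, and CKO 34 was its lowest array, so that the lowest array differed between these genes.

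Kcnj8 and Abcc9 encode the pore and the regulatory subunit of the ATP-sensitive potassium channel of pericytes. Kcnj8 had 9.41, 9.33, 9.28 and 9.29 on CKO 1, CKO 4, CKO 34 and CKO 43, and 9.25, 9.16 and 9.37 on WT 6, WT 27 and WT 38. WT 38 lay above 3 of the 4 CKO arrays, and the difference was 0.07 (SE 0.058) over all arrays, 0.12 without WT 38 and 0.019 without WT 27. Abcc9 averaged 9.11 ± 0.031 in CKO and 9.08 ± 0.097 in WT.

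Pdgfrb encodes the platelet-derived growth factor receptor by which pericytes are recruited. It had 9.61, 9.47, 9.66 and 9.50 on CKO 1, CKO 4, CKO 34 and CKO 43, and 9.50, 9.52 and 9.50 on WT 6, WT 27 and WT 38. The WT arrays were nearly level, CKO 1 and CKO 34 lay above them, and CKO 4 lay below. The difference was 0.06 (SE 0.053) over all arrays, 0.025 without CKO 34 and 0.088 without CKO 4. Rgs5, a regulator of G protein signalling enriched in pericytes, was the mural gene with a negative difference, -0.03 (SE 0.060), with CKO 4 lowest at 9.36 and CKO 1 highest at 9.62. Vtn, which encodes vitronectin, averaged 9.43 ± 0.017 in CKO and 9.41 ± 0.169 in WT. Anpep, which encodes aminopeptidase N, averaged 7.94 ± 0.091 in CKO and 7.86 ± 0.145 in WT, and its difference of 0.08 was 0.0076 without WT 38.

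Many members were highest on the same array. CKO 1 was the highest of the 7 arrays for 12 of 22 endothelial and 6 of 9 mural genes, 58.1% of the 31, against 17.7% of all genes. Among the CKO arrays alone it was the highest for 17 endothelial and 7 mural genes, 77.4%, against 37.4% of all genes. CKO 1 lay above the mean of the other CKO arrays by a median of 0.11 for endothelial genes and 0.11 for mural genes, against 0.025 for all genes, and was above it for all 9 mural genes and for 19 of the 22 endothelial ones, the exceptions being Slc2a1, Abcg2 and Mfsd2a. At the other end WT 38 was the lowest array for 11 of 22 endothelial genes and 2 of 9 mural genes, against 30.8% of all genes. These shares are over genes measured on the same 7 arrays and were not tested.

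**Figure D3:**
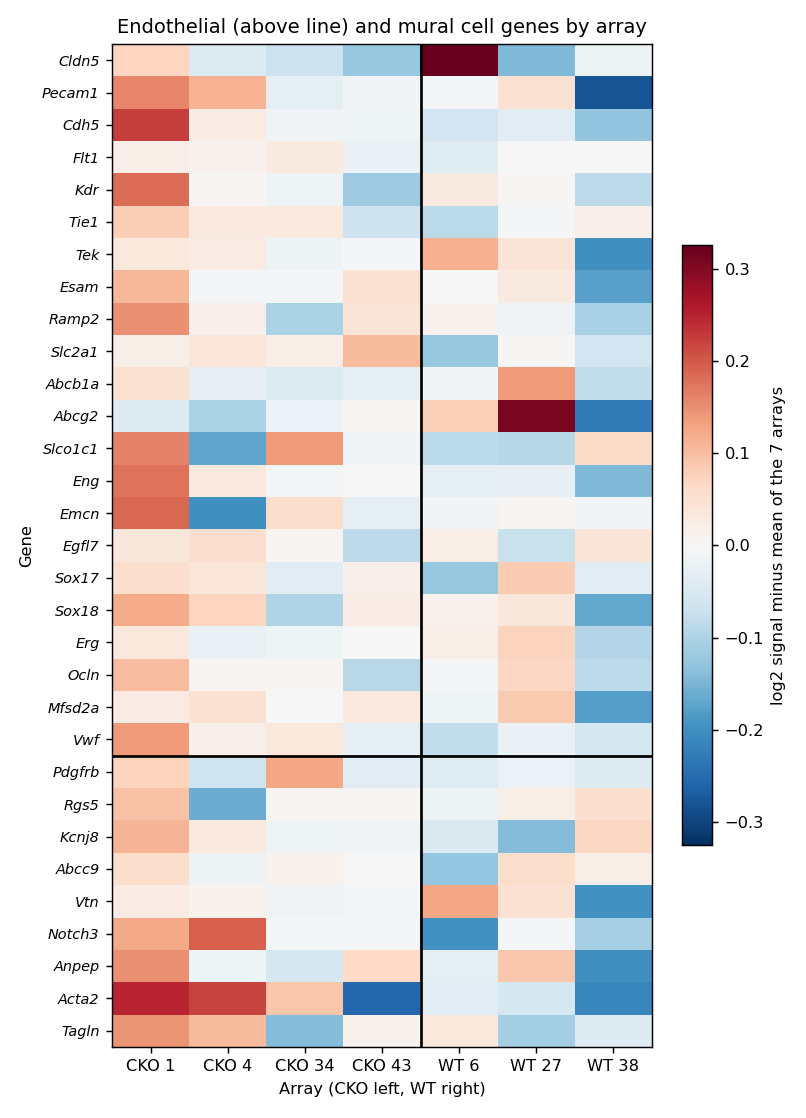
Log2 signal of each tested endothelial (above the line) and mural cell gene on each array, as the deviation from that gene's mean over the 7 arrays (red above, blue below), with CKO arrays left and WT arrays right. The CKO 1 column is red for most genes and the WT 38 column blue for most endothelial genes, with deep red cells for Cldn5 on WT 6 and Abcg2 on WT 27.

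As a mean over its genes, relative to the mean of the 7 arrays, the endothelial list stood at 0.095 on CKO 1, -0.0016 on CKO 4, -0.0066 on CKO 34 and -0.016 on CKO 43, and at -0.0028 on WT 6, 0.024 on WT 27 and -0.091 on WT 38. CKO 1 stood above and WT 38 below all other arrays, and WT 27 lay above 3 of the 4 CKO arrays. The mural list stood at 0.11, 0.034, 0.00097 and -0.025 on CKO 1, CKO 4, CKO 34 and CKO 43, and at -0.037, -0.013 and -0.074 on WT 6, WT 27 and WT 38. Here CKO 43 alone lay below a WT array. Leaving out CKO 1 lowered the median difference to 0.023 for endothelial and 0.042 for mural genes, and leaving out WT 38 to 0.024 and 0.054. Without both, a setting chosen after these arrays were seen, the endothelial median was -0.0048, with 11 of 22 genes positive, and the mural median 0.033, with 6 of 9 positive. Within the second stem, where CKO 34 and CKO 43 meet WT 27 and WT 38, the medians were 0.022, with 14 of 22 endothelial genes positive, and 0.051, with 7 of 9 mural genes positive.

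**Figure D4:**
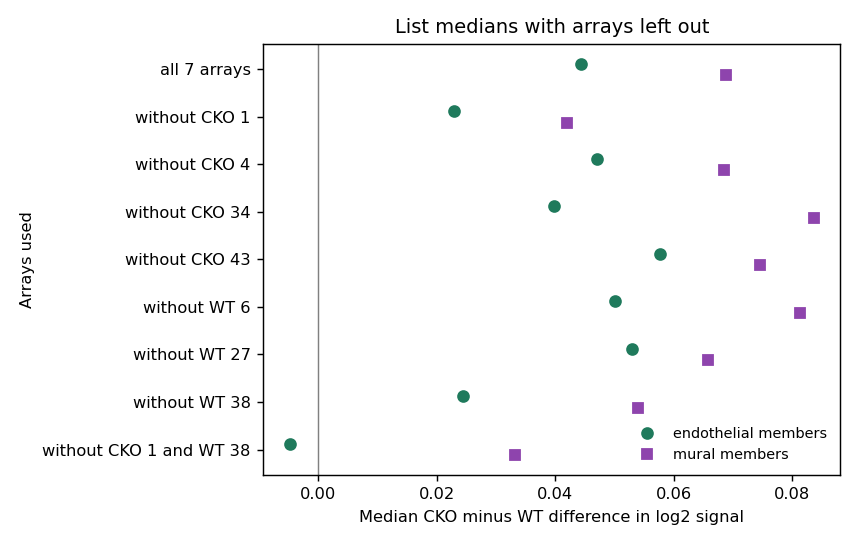
Median CKO minus WT difference in log2 signal (x axis) of the endothelial (circles) and mural cell genes (squares) over all 7 arrays and with the arrays named at the left removed. The endothelial median drops to 0.023 without CKO 1, to 0.024 without WT 38 and to -0.0048 without both, and the mural median stays between 0.033 and 0.084.

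Markers of other cells also varied between these arrays, given again as list means relative to the mean of the 7 arrays. Meningeal fibroblast genes (10 of 13 tested, among them Dcn and Col1a1) stood higher on every CKO array, from 0.042 to 0.13, than on every WT array, from -0.13 to -0.069. The difference was above 0 for all 10, and its median was 0.19. Red blood cell genes (5 of 14 tested, among them Hbb-y and Hba-x) ranged from -0.053 on CKO 43 to 0.32 on CKO 4, and from -0.51 on WT 38 to 0.11 on WT 27. All 12 astrocyte and radial glia genes were tested, among them Fabp7 and Aldoc. Their mean was highest on CKO 1, at 0.11, and lowest on WT 38, at -0.11. These arrays were also highest and lowest for the endothelial and mural lists. The same held over all genes tested, at 0.031 on CKO 1 and -0.026 on WT 38. Microglia genes (11 of 12 tested, among them C1qb and Cx3cr1) were also highest on CKO 1, at 0.083. C1qb and Cx3cr1 differed by 0.13 and 0.065, but Aif1 by -0.36 (SE 0.110). Of the 11 microglia genes 4 had negative differences, and the mean difference of the list was -0.0058. Choroid plexus genes (6 of 9 tested, among them Aqp1 and Otx2) stood at 0.35 on CKO 1 and 0.17 on WT 38. On CKO 1 the high genes of that list were Otx2, at 8.77 with 7.56 to 7.72 on the other CKO arrays, and Ttr, at 8.36 with 6.96 to 7.32, whereas Aqp1 was at 7.82 with 7.77 to 7.91. Neuron genes (10 of 10 tested, among them Stmn2 and Map2) ranged from -0.15 on CKO 4 to 0.038 on CKO 1, and from -0.013 on WT 6 to 0.13 on WT 38. Nefl, a neurofilament gene, weighed most in that mean, with a difference of -0.98 (SE 0.274). Stmn2 and Map2 differed by -0.03 and -0.05, Slc17a7 by -0.12 and Gad1 by 0.13, and the list's median difference was -0.036. Nefl and Syt1 (-0.19, SE 0.067) were the 2 of the 10 with every CKO array below every WT array, as 2.99% of all genes had. The difference was above 0 for all 5 red blood cell genes (median 0.13) and all 12 astrocyte and radial glia genes (median 0.12). Both medians exceeded those of the endothelial (0.044) and mural genes (0.069). Differences were above 0 for 7 of 11 microglia, 5 of 6 choroid plexus and 3 of 10 neuron genes, against 58.9% of all genes. The part of these cells in the vascular differences was not tested.

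**Figure D5:**
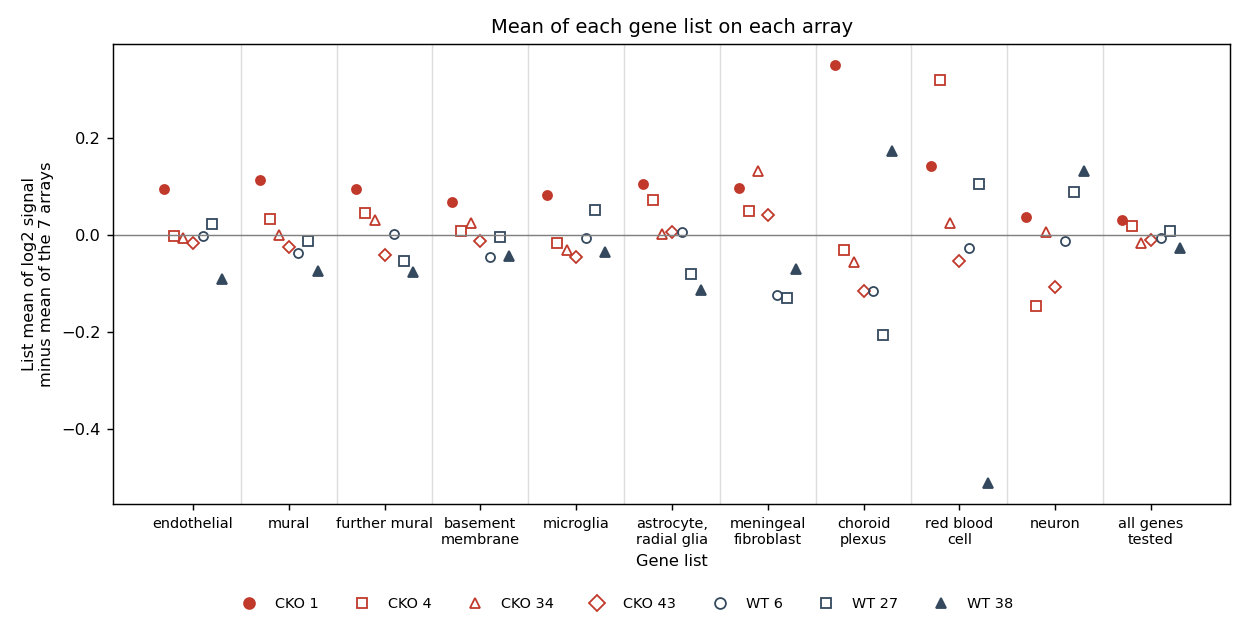
Mean log2 signal of each gene list on each array relative to the list's mean over the 7 arrays (y axis), for the endothelial and mural genes, related lists and other cell types; red symbols are CKO and dark ones WT, with CKO 1 and WT 38 filled. CKO 1 is highest for the endothelial list at 0.095 and WT 38 lowest at -0.091. The same holds for mural, further mural, and astrocyte and radial glia genes. It also holds over all genes tested, at 0.031 and -0.026.

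Genes that act around the vessel wall were counted from further lists, in which those with the smallest p are named, and none passed an adjusted p of 0.05 in limma. Of 23 genes of VEGF, Notch and angiopoietin signalling, 13 had a positive and 10 a negative difference, with a median of 0.017. The ligand gene Vegfb (0.15, SE 0.0495) and the receptor gene Notch1 (0.12, SE 0.046) had every CKO array above every WT array, while Nrp2, a co-receptor for VEGF and semaphorins, had every CKO array below (-0.37, SE 0.130), as had the ligand gene Vegfd, annotated on the array as Figf (-0.19, SE 0.080). Nrp1 differed by -0.14 (SE 0.059). Vegfa, the main ligand of Kdr, averaged 10.14 in CKO and 10.12 in WT. These genes are also expressed by neurons and progenitors.

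Among genes of the Wnt signal that induces the barrier, the ligand and co-receptor genes with the smallest p differed in sign. Wnt7b, made by neural cells, differed by -0.22 (SE 0.070), whereas Adgra2, annotated on the array as Gpr124 (0.19, SE 0.074) and Reck (0.15, SE 0.057), which together let endothelial cells respond to Wnt7 ligands, had positive differences. Each had an adjusted p between 0.711 and 0.723 in limma. Reck did not overlap between the groups, and Adgra2 was highest on CKO 1, at 8.81, and lowest on WT 6, at 8.39. Of the 15 genes of this list 12 were positive, with a median of 0.035. The 3 negative ones were Wnt7b, Wnt7a (-0.098) and Ndp (-0.021). Of the other receptor genes, Lrp5 differed by 0.083, Fzd4 by 0.063, Tspan12 by 0.035 and Lrp6 by 0.0030. Among all 15, only Wnt7b, Adgra2 and Reck had an unadjusted p under 0.05 in limma.

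Of 12 genes of PDGF and TGF-beta signalling in mural recruitment, 11 were positive, with a median of 0.039. S1pr1, a sphingosine-1-phosphate receptor, differed by 0.12 (SE 0.048) without overlap. Pdgfb, the ligand of Pdgfrb, averaged 9.29 in CKO and 9.27 in WT. Further mural genes were positive in 9 of 12, with a median of 0.078, and Foxs1 (0.17, SE 0.065) and Mcam (0.15, SE 0.065) had the smallest p, while Tpm2 had the largest difference (0.18, SE 0.085). Vascular basement membrane genes were positive in 10 of 11, with a median of 0.042, and Col4a2 (0.11, SE 0.050) and Nid2 (0.13, SE 0.073) had the smallest p. Other junction genes were positive in 7 of 9 (median 0.059), with the smallest p for Jam2 (0.13, SE 0.057) and F11r (0.12, SE 0.078). Other transport and caveolar genes were positive in 6 of 14 (median -0.0028), with the smallest p for Cav1 (0.23, SE 0.120) and Abcc4 (0.056, SE 0.035). Slc7a1 (0.072), Slc7a5 (0.062) and Tfrc (0.059) differed by more than Abcc4, and Slc16a1 by -0.11. In these further lists Abcc4, Mcam, Cd248, Col4a2 and Tnfrsf21 also had every CKO array above every WT array. Lamb1 had every CKO array below. Over all genes the shares without overlap were 5.39% higher and 2.99% lower in CKO. CKO 1 was the highest array for 7 of the 11 basement membrane, 7 of the 12 recruitment and 5 of the 12 further mural genes. The counts were lower for the other lists, at 3 of 9 junction, 3 of 15 Wnt and 3 of 14 transport genes. For VEGF, Notch and angiopoietin genes the count was 5 of 23, and the share over all genes was 17.7%.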

How the data were processed

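Per the labels, total RNA of whole neocortex (0.2 µg, RNA integrity number 10) was hybridised to 7 Affymetrix arrays. The authors deposited log2 values per probe set, which the submitters' processing notes credit to RMA and to Affymetrix Expression Console, with no version. RMA equalises the distribution of signals between arrays, so that a shift shared by most genes is removed; each array had a median of 8.23, and the number of arrays limits precision.

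Of 35468 probe sets, 21786 carried 1 gene symbol, 1621 several and 12061 none in the platform annotation. Where a gene had several, the probe set with the highest mean was used, and genes under the 25th percentile of probe-set means (log2 6.84) were left out, leaving 16144. CKO and WT were compared by lmFit and eBayes of limma (version 3.58.1, under R 4.3.3), with Benjamini-Hochberg adjustment over these genes, a threshold of 0.05 and 95% intervals from limma. The procedure was run on simulated data with changes larger than any member difference, so that run does not bear on differences as small as these. Alternatives covered scaling, filter, probe-set choice, array weights, the array identifier stem and each array left out.

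The members and gene lists were chosen with earlier results of these data known. Genes given array by array were the 4 of each list with the smallest p, those without overlap and Cdh5; of further lists the smallest p were named. Cldn5, Abcg2 and the other members were described after their values were seen.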

Additional observations from a re-analysis of the deposited data

Results flagged for a closer look

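Cdh5 on CKO 1, at a log2 signal of 10.17, stood far from the other CKO arrays, which were at 9.93 to 9.97. The mean of the endothelial genes on CKO 1, at 0.095 relative to the mean of the 7 arrays, did so too, with the other CKO arrays at -0.016 to -0.0016. Both exceeded Dixon's 95% critical value for 4 values, but the high Cdh5 value on CKO 1 was known when these genes were chosen, so this describes the array and tests nothing. Cdh5 was 1 of the 31 members to do so (3.23%), against 6.52% of all genes, and chance gives about 1 in 20 groups. The mean includes Cdh5, so these results are not separate. The mean over all genes tested was also highest on CKO 1, at 0.031, as was that of the mural list, at 0.11. So were the list means of choroid plexus, of astrocyte and radial glia, and of microglia genes. Gene by gene, CKO 1 was the highest array for 2 of 6, 3 of 12 and 5 of 11 of them. The part of these cells in the values above was not tested.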

How the results depend on the processing

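No endothelial or mural cell gene passed an adjusted p of 0.05 from limma in any of 19 alternatives, in which the lowest was 0.345 (Abcg2 without WT 38). The 4 calls among all genes became 1 with quantile normalization, with array weights and with all probe sets, 0 with the array identifier stem as a fixed block or with the second stem alone, 2 without CKO 1 and WT 38 together, and 1 to 6 with single arrays left out. With single arrays left out the list medians ranged from 0.023 to 0.058 for endothelial and from 0.042 to 0.084 for mural genes. The spread between replicates of the endothelial mean, 0.055, exceeds the endothelial median of 0.044, so a shift smaller than it does not show that the median is stable.

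Signs changed in 54 of 582 values, over 18 members, none of them called. With the stem as a fixed block, and equally within the second stem, Kdr was at -0.0262, Tie1 -0.0245, Egfl7 -0.0244, Sox17 -0.033, Ocln -0.0336 and Abcc9 -0.0326. With the stem as a random block Egfl7 was at -0.00126 and Erg at -4.25e-06. With array weights Kdr was at -0.0188, Tek -0.0137, Egfl7 -0.00297, Erg -0.0232, Ocln -0.0345 and Vtn -0.0211. Median centring gave -0.00304 for Erg, and quantile normalization -0.00078 for Egfl7, -0.0244 for Erg and -0.0253 for Ocln. Without CKO 1 and WT 38, chosen after seeing the data, Kdr was at -0.0605, Tek -0.0772, Ramp2 -0.0163, Emcn -0.0549, Sox18 -0.0256, Erg -0.0592, Ocln -0.0582, Mfsd2a -0.00968, Vtn -0.0873 and Anpep -0.0302. With single arrays left out, the ranges were -0.197 to 0.0376 for Cldn5, -0.0261 to 0.0745 for Kdr, -0.0689 to 0.0887 for Tek, -0.0773 to 0.0312 for Abcb1a, -0.231 to 0.0353 for Abcg2, -0.0524 to 0.0761 for Emcn, -0.0293 to 0.0341 for Egfl7, -0.0041 to 0.0987 for Sox17, -0.0475 to 0.0368 for Erg, -0.0266 to 0.0485 for Ocln, -0.00971 to 0.123 for Mfsd2a, -0.0687 to 0.0168 for Rgs5, -0.0254 to 0.0658 for Abcc9 and -0.0803 to 0.0813 for Vtn. The cause was not tested. No paired analysis was possible because the groups share no replicate number.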
